A study of Mus musculus with 26 samples.

Results

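Described here are 9 genes of the tricarboxylic acid (TCA) cycle, Cs, Idh2, Idh3a, Idh3b, Idh3g, Dlat, Ogdh, Suclg2 and Sucla2, across mouse embryonic stem cells (ESCs) that lacked or carried estrogen-related receptor beta (ERR beta, an orphan nuclear receptor and the product of Esrrb). They were chosen by name as 9 of the 24421 genes in the deposited count table, and all 9 were among the 15238 genes abundant enough to test. The data were RNA-seq counts from 26 libraries of 14 clones, with 2 clones in each of 7 groups. Library totals ran from 21276790 to 30021667 counts.

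The first 4 groups carried the ERR beta -/- genotype and expressed, under doxycycline, wild-type ERR beta (KO_ERRb_wt, clones 8-3 and 8-4), a mutant unable to bind DNA (KO_ERRb_DBDm3, clones 9-6 and 9-8), a mutant unable to bind the general transcription factor TFIIH (KO_ERRb_DBDm6, clones 10-24 and 10-26) or a mutant unable to bind coactivators (KO_ERRb_AF2M6, clones 32-25 and 32-31). KO_ERRg_wt (clones 14-1-10 and 14-11) had the same genotype and expressed wild-type ERR gamma, the close relative encoded by Esrrg. KO_mock (clones 12-1 and 12-3) had that genotype with nothing expressed in its place, and WT_mock (clones 5-2 and 5-5) was wild type. All 7 groups received doxycycline at 2 µg/ml for 3 days. Each clone gave 2 libraries, except the KO_ERRg_wt clones with 1 each, and the counts of a clone were summed, so that n = 2 clones in every group. The labels do not say whether the clones of a group arose independently, and the p-values measure only the spread between clones.

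The TCA cycle is the mitochondrial route that oxidises acetyl-CoA and hands electrons to the respiratory chain. Acetyl-CoA enters from pyruvate through the pyruvate dehydrogenase complex, citrate synthase joins it to oxaloacetate, and isocitrate dehydrogenases, 2-oxoglutarate dehydrogenase and succinyl-CoA synthetase carry out the steps down to succinate. ERR proteins, with coactivators of the PGC-1 family, are known regulators of genes of oxidative metabolism in tissues such as heart and muscle, and ERR beta is known in ESCs as a factor of the naive pluripotency network.

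Esrrb itself averaged 420 ± 13.5 CPM in KO_ERRb_wt, 517 ± 50.5 CPM in KO_ERRb_DBDm3, 530 ± 29.2 CPM in KO_ERRb_DBDm6, 451 ± 18 CPM in KO_ERRb_AF2M6, 471 ± 8.03 CPM in KO_ERRg_wt, 277 ± 0.733 CPM in KO_mock and 581 ± 29.9 CPM in WT_mock (CPM, counts scaled to a common library size; SD, n = 2 clones each). The counts cover the whole gene and do not separate a construct from the endogenous locus, and which part was deleted is not stated, so they check the genotype labels only in part. KO_ERRg_wt, labelled as expressing ERR gamma, had a higher Esrrb mean than KO_ERRb_wt. A mean above that of KO_mock therefore does not by itself show expression of an ERR beta construct. Esrrg averaged 177 ± 73.8 CPM in KO_ERRg_wt and had 0 counts in KO_mock, which allows at most 0.033 CPM. The transcript of the coactivator PGC-1 alpha, Ppargc1a, had at most 0.134 CPM in any library. Summed markers of ESCs ran from 3020 to 3770 CPM over the 14 clones, with all 8 detected. The 8 fibroblast feeder markers summed to 1.1 to 7.15 CPM, the 6 primitive endoderm markers to 1.57 to 10.2 CPM, and the 4 trophoblast markers to 1.96 to 6.66 CPM. The 4 mesoderm markers, none of them at 0 in any group, summed in the KO_ERRb_wt clones to 47.9 and 63 CPM, in KO_ERRb_DBDm3 to 6.49 and 28.9, in KO_ERRb_DBDm6 to 13.1 and 19.5, in KO_ERRb_AF2M6 to 13.5 and 42.5, in KO_ERRg_wt to 7.73 and 9.82, in KO_mock to 61.2 and 66.5 and in WT_mock to 15.7 and 23.8 CPM (lower clone first). Those of the 4 neuroectoderm markers ran from 41.5 to 73.8 CPM outside KO_mock and from 77.7 to 86.6 CPM in KO_mock. The part of these differentiation markers in the results below was not tested.

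Whole chromosomes also differed between clones, and 2 of the 9 genes lie on such a chromosome. Tested genes of chromosome 14, which holds Sucla2, had median log2 differences from WT_mock of -0.502 to -0.617 in the 12 knockout-derived clones. On chromosome 6, which holds Suclg2, the medians were 0.0184 and 0.0311 in the KO_ERRb_wt clones, -0.41 in clone 9-6 and -0.914 in clone 9-8 of KO_ERRb_DBDm3, -0.942 to -0.91 in KO_ERRb_DBDm6 and KO_ERRb_AF2M6, -0.334 and -0.335 in KO_ERRg_wt, and 0.0196 and 0.0436 in KO_mock. Genes of chromosome 8, which holds none of the 9, had medians of -0.531 to -0.428 in the mutant and KO_ERRg_wt clones. Across the 11 comparisons reported, the median log2 fold changes of the other chromosomes lay between -0.069 and 0.137. Chromosomes 6 and 8 were thus lower in every mutant and KO_ERRg_wt clone, but not in KO_mock or KO_ERRb_wt. In comparisons between these sets, the expressed protein and the chromosome state cannot be told apart for any of the 9 genes. The same holds for the knockout and chromosome 14 in comparisons with WT_mock.

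Of the 9 genes, Idh2 had the largest fold change in the 11 comparisons reported, that between KO_ERRg_wt and KO_mock. It was lower in KO_mock than in WT_mock, higher than in KO_mock with each of the 5 expressed receptors, and highest with ERR gamma. Suclg2 and Sucla2, which encode the alternative beta subunits of succinyl-CoA synthetase, were lower in each of the 6 knockout-derived groups than in WT_mock and were not called higher with wild-type ERR beta than in KO_mock. The 3 subunits of the NAD-dependent isocitrate dehydrogenase, with Dlat and Ogdh, were called higher than in KO_mock with ERR gamma and with the TFIIH-binding mutant. Cs was the 1 gene of the 9 not called when the 7 groups were compared together.

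**Figure D1:**
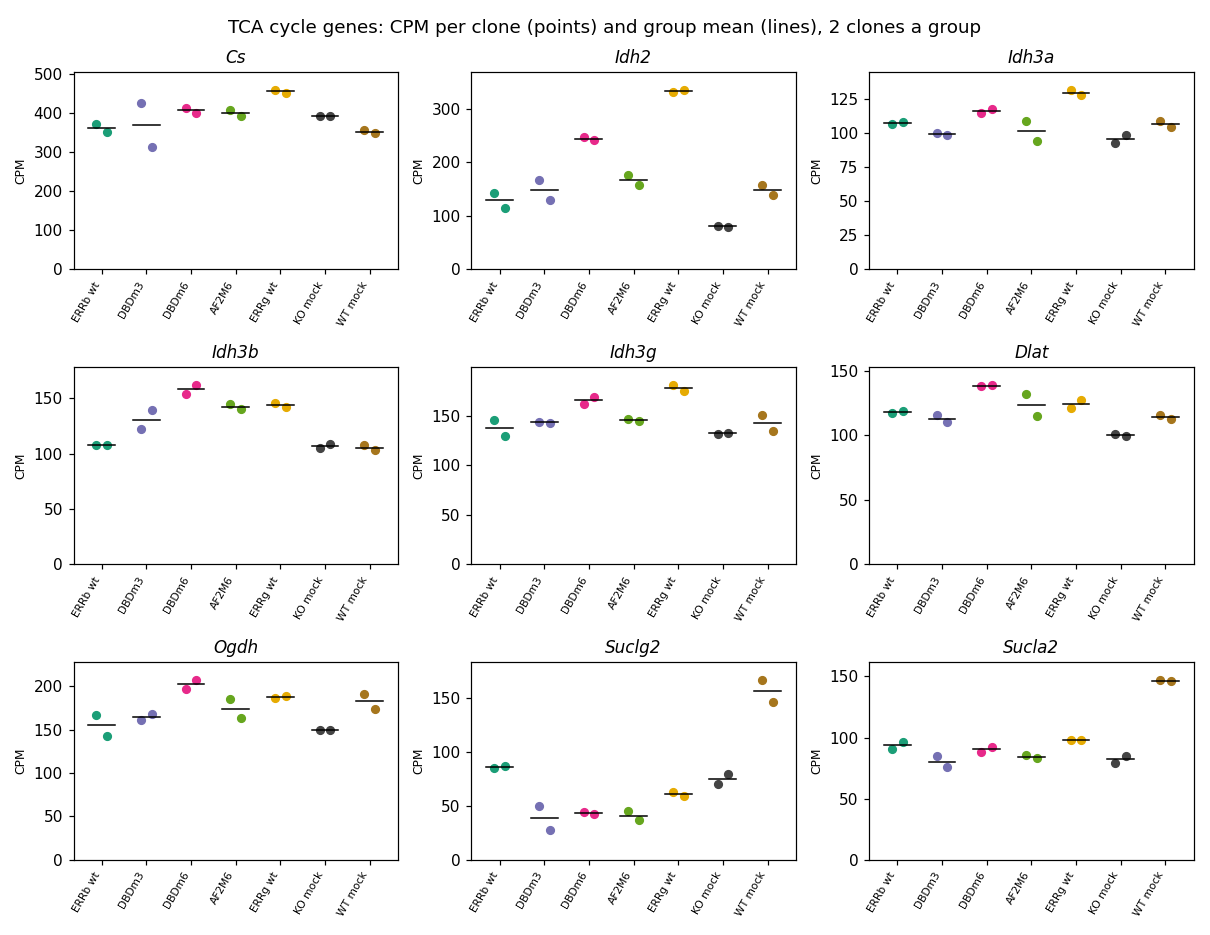
CPM (vertical axes, from 0) of each gene in each clone (points) and the mean of the 2 clones of a group (lines). The Idh2 points of KO_ERRg_wt lie at 331 and 335 CPM and those of KO_mock at 80.7 and 78.9 CPM, and in the Suclg2 and Sucla2 panels the WT_mock points lie above all others.

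Counts of called genes were read against those over all tested genes, with edgeR's quasi-likelihood test, Benjamini-Hochberg adjustment over the 15238 genes and a threshold of 0.05. In bulk RNA, fewer cells that express a gene and less of its RNA per cell cannot be told apart. In KO_mock against WT_mock, 5 of the 9 were lower (Idh2, Dlat, Ogdh, Suclg2 and Sucla2) where 37.4% of all genes were called, 18% as higher and 19.4% as lower. The median log2 fold change of the 9 was -0.19, and that of all tested genes was -0.003. In KO_ERRb_wt against WT_mock, 2 of the 9 were lower (Suclg2 and Sucla2), where 10.3% of all genes were called, 4.49% as higher and 5.79% as lower. In KO_ERRb_wt against KO_mock, 1 of the 9 was called, Idh2, which was higher, where 1.85% of all genes were called, 1.07% as higher and 0.781% as lower. The median of the 9 in that comparison was 0.16 and that of all genes 0.006.

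Against the same 2 KO_mock clones, KO_ERRb_DBDm3 had 2 of the 9 higher (Idh2 and Idh3b) and 1 lower (Suclg2), where 25.7% of all genes were called (12.4% higher, 13.3% lower). KO_ERRb_DBDm6 had 6 higher (Idh2, Idh3a, Idh3b, Idh3g, Dlat and Ogdh) and 1 lower (Suclg2), where 41.4% were called (20.8% higher, 20.6% lower). KO_ERRb_AF2M6 had 3 higher (Idh2, Idh3b and Dlat) and 1 lower (Suclg2), where 37.1% were called (18.1% higher, 19.1% lower). KO_ERRg_wt had 7 higher, all but Cs and Suclg2, where 38.3% were called (20% higher, 18.3% lower). The medians of the 9 were 0.11, 0.32, 0.14 and 0.33 in these 4 comparisons, against 0.01, 0.002, 0.007 and 0.003 over all genes. The 4 comparisons share their KO_mock clones, so that they are not independent of each other.

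Against the 2 KO_ERRb_wt clones, KO_ERRb_DBDm3 had 1 of the 9 higher (Idh3b) and 2 lower (Suclg2 and Sucla2), where 32.1% of all genes were called (15.3% higher, 16.8% lower). KO_ERRb_DBDm6 had 5 higher (Idh2, Idh3b, Idh3g, Dlat and Ogdh) and 1 lower (Suclg2), where 39% were called (19.1% higher, 20% lower). KO_ERRb_AF2M6 had 2 higher (Idh2 and Idh3b) and 1 lower (Suclg2), where 43.2% were called (20.3% higher, 22.8% lower). KO_ERRg_wt had 6 higher (Cs, Idh2, Idh3a, Idh3b, Idh3g and Ogdh), where 25.4% were called (13.5% higher, 11.9% lower). These 4 comparisons share the KO_ERRb_wt clones. When the 7 groups were compared together, 8 of the 9 differed, all but Cs (adjusted p = 0.0774), where 69.6% of all genes differed.

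**Figure D2:**
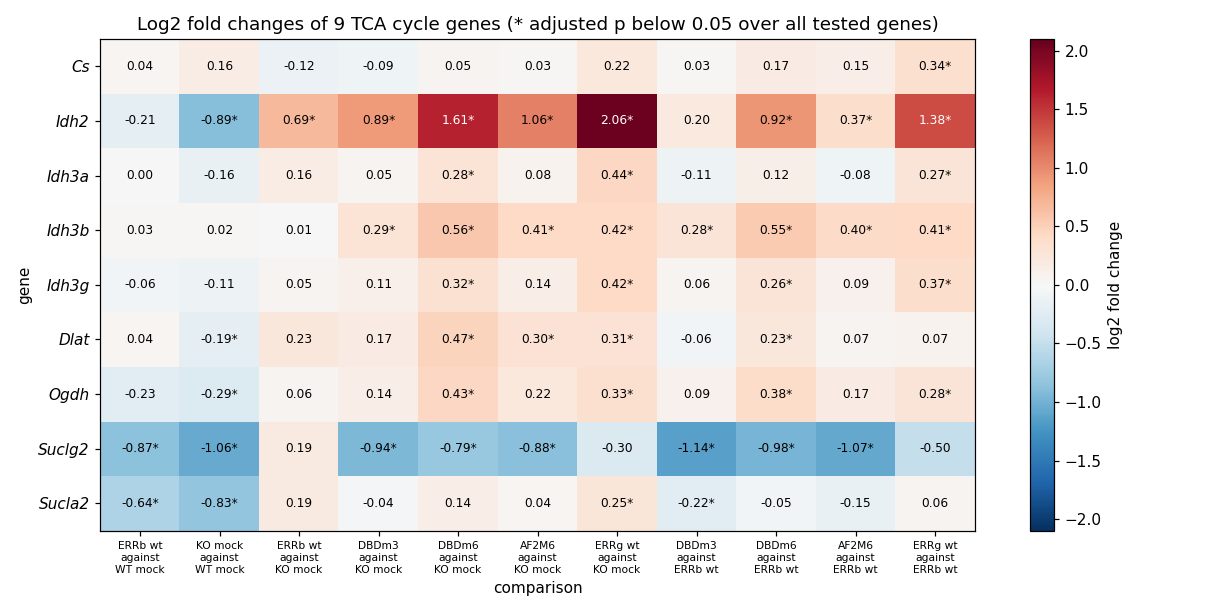
Log2 fold changes (colour and printed value) of the 9 genes (rows) in 11 comparisons (columns, group on top over the group it was set against), with an asterisk at an adjusted p below 0.05. The Idh2 row holds 2.06 for ERRg wt against KO mock and -0.89 for KO mock against WT mock, and the Suclg2 row is negative in all comparisons but ERRb wt against KO mock.

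Dlat (chr9:50634633-50659780, minus strand, as the deposited table gives it in mm10) encodes the E2 acetyltransferase of the pyruvate dehydrogenase complex, the gate through which pyruvate carbon enters the cycle. It measured 117 and 119 CPM in the KO_ERRb_wt clones, 116 and 110 CPM in KO_ERRb_DBDm3, 138 and 139 CPM in KO_ERRb_DBDm6 and 132 and 115 CPM in KO_ERRb_AF2M6. The remaining clones had 121 and 127 CPM in KO_ERRg_wt, 101 and 99.1 CPM in KO_mock and 116 and 113 CPM in WT_mock. Both KO_mock clones were below every other clone. The log2 fold change was -0.19 ± 0.0687 (SE) in KO_mock against WT_mock (adjusted p = 0.0456), and this call ended on leaving out any 1 of 10 of the 14 clones (5-2, 5-5, 12-1, 12-3, 8-3, 8-4, 10-24, 10-26, 14-1-10 and 14-11; adjusted p = 0.0566 to 0.195). It ended too with DESeq2 (0.0613), DESeq2 size factors (0.0629) or no filter on low counts (0.0738). Against KO_mock the fold changes were 0.47 ± 0.0687 in KO_ERRb_DBDm6 (adjusted p = 0.000376), 0.30 ± 0.0687 in KO_ERRb_AF2M6 (adjusted p = 0.00557) and 0.31 ± 0.069 in KO_ERRg_wt (adjusted p = 0.00522). The call in KO_ERRb_AF2M6 ended without clone 32-25 (adjusted p = 0.0537) and that in KO_ERRg_wt without clone 14-11 (adjusted p = 0.0545). In KO_ERRb_wt against KO_mock Dlat missed the threshold (0.235 ± 0.0687, adjusted p = 0.1) and passed it without clone 9-6 (0.0483) or clone 9-8 (0.0482), with limma-voom on libraries (0.0227, and 0.028 with the block) and with only the 4 clones compared (0.0453). KO_ERRb_DBDm3 against KO_mock gave 0.17 ± 0.0687 (adjusted p = 0.0861), and fell below the threshold without 32-25 (0.0498) or 32-31 (0.0493) and with limma-voom (0.025, and 0.0297 with the block). Against KO_ERRb_wt, KO_ERRb_DBDm6 was higher by 0.23 ± 0.0685 (adjusted p = 0.0197), a call that ended without 8-3, 8-4, 10-24 or 10-26 (adjusted p = 0.0605 to 0.0854) and with library totals (0.0842).

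Cs (chr10:128337832-128362479, plus strand) encodes citrate synthase, which condenses acetyl-CoA with oxaloacetate. Its levels were 371 and 351 CPM in KO_ERRb_wt, 424 and 312 CPM in KO_ERRb_DBDm3, 413 and 400 CPM in KO_ERRb_DBDm6 and 408 and 392 CPM in KO_ERRb_AF2M6. KO_ERRg_wt had 459 and 452 CPM, KO_mock had 391 and 393 CPM, and WT_mock had 355 and 348 CPM. The 2 KO_ERRb_DBDm3 clones stood apart, 1 near the top of the range and 1 below all other clones. KO_ERRg_wt was higher than KO_ERRb_wt by 0.34 ± 0.106 (adjusted p = 0.0395), the single call among the 11 comparisons, and it ended on leaving out any 1 of 10 of the 14 clones (5-2, 5-5, 12-1, 12-3, 8-3, 8-4, 10-24, 10-26, 14-1-10 and 14-11; adjusted p = 0.0572 to 0.203). It also ended with library totals (0.0557), with TMM without chromosomes 6, 8 and 14 (0.0565) and with each chromosome scaled separately (0.0529). Leaving out clone 9-6 or clone 9-8 narrows the spread of this gene, and several comparisons then passed. KO_mock against WT_mock (0.16 ± 0.106, adjusted p = 0.269) gave 0.0204 without 9-6 and 0.0202 without 9-8. KO_ERRg_wt against KO_mock (0.22 ± 0.106, adjusted p = 0.128) gave 0.00339 and 0.00335. KO_ERRb_DBDm6 against KO_ERRb_wt (0.17 ± 0.106, adjusted p = 0.224) gave 0.0126 and 0.0124. KO_ERRb_AF2M6 against KO_ERRb_wt (0.15 ± 0.106, adjusted p = 0.287) gave 0.0261 and 0.0255. KO_ERRb_DBDm3 against KO_ERRb_wt was 0.025 ± 0.106 (adjusted p = 0.879), -0.21 without 9-6 (adjusted p = 0.0142) and 0.23 without 9-8 (adjusted p = 0.0151), and against KO_mock it was -0.09 (adjusted p = 0.564) and -0.33 without 9-6 (adjusted p = 0.0011).

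Idh2 (chr7:80094847-80115350, minus strand) encodes the mitochondrial isocitrate dehydrogenase that reduces NADP, a source of NADPH in mitochondria. Its 300 bases around the RefSeq start (250 before and 50 after, GRCm38.p6, the build also called mm10) follow with those of 3 other genes, because the study varied an ERR protein. Idh2, Suclg2 and Sucla2 had the 3 largest fold changes of the 9 between KO_mock and WT_mock, and Ogdh is the 1 gene with a match. ERR proteins bind an extended element, TNAAGGTCA, whose core is AAGGTCA. Both were searched on both strands, every extended match also being a core match, and capitals mark a core match, here on the opposite strand of Ogdh with its first base 5 bases before the start.
Idh2 (chr7:80115301-80115600, minus strand): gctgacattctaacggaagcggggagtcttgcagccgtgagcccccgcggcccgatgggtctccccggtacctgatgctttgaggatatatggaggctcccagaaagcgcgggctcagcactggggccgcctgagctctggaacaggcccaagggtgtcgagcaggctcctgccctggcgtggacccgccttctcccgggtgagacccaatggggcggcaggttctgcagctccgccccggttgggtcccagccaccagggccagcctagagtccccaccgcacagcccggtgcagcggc
Ogdh (chr11:6291920-6292219, plus strand): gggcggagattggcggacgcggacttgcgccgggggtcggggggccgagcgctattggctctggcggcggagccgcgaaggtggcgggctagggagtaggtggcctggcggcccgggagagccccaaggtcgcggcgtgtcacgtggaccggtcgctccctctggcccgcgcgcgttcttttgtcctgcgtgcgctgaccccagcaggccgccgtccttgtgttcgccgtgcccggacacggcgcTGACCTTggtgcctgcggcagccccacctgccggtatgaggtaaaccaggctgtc
Suclg2 (chr6:95718797-95719096, minus strand): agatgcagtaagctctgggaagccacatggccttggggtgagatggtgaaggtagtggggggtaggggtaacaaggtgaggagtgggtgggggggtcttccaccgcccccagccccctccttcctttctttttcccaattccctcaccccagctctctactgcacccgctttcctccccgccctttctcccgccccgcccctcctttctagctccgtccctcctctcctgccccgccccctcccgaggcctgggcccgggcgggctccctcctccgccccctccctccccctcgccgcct
Sucla2 (chr14:73552536-73552835, plus strand): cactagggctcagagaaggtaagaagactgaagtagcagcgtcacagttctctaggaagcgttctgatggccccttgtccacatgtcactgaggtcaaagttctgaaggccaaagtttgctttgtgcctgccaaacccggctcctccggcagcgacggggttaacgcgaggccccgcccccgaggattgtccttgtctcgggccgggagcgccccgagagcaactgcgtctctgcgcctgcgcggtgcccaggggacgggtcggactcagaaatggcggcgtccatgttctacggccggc
RefSeq windows matched 8 of the 9 genes by symbol, with 6 windows for Ogdh, of which the fourth is printed, and 1 for each other gene. The core was in 1 of the 8 genes (Ogdh, in 1 of its 6 windows) and the extended element in 0. Of all 27025 RefSeq genes with such windows, 5.38% held the core and 1.43% the extended element in a window. Sites farther away were not searched.

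Idh2 levels were 143 and 114 CPM in KO_ERRb_wt, 166 and 129 CPM in KO_ERRb_DBDm3, 246 and 241 CPM in KO_ERRb_DBDm6 and 175 and 157 CPM in KO_ERRb_AF2M6. KO_ERRg_wt had 331 and 335 CPM, KO_mock had 80.7 and 78.9 CPM, and WT_mock had 157 and 139 CPM. The KO_mock clones were the lowest of the 14 and the KO_ERRg_wt clones the highest, and the KO_ERRb_DBDm6 clones lay between KO_ERRg_wt and all others. The clones of KO_ERRb_wt overlapped those of WT_mock.

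KO_mock stood at 53.9% of the WT_mock mean, a log2 fold change of -0.89 ± 0.127 (adjusted p = 0.000708). With wild-type ERR beta the level was higher than in KO_mock by 0.69 ± 0.127 (adjusted p = 0.0253) and differed from WT_mock by -0.21 ± 0.126 (adjusted p = 0.303). The call for wild-type ERR beta ended without clone 12-1 (adjusted p = 0.2), 12-3 (0.186), 8-3 (0.236), 14-1-10 (0.0557) or 14-11 (0.0555), with fold changes of 0.51 to 0.70 on leaving these out. Fitted on single libraries with limma-voom it was also not called (adjusted p = 0.0676, and 0.078 with the replicate number as a block).

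Each mutant also had more Idh2 than KO_mock. The fold change was 0.89 ± 0.127 in KO_ERRb_DBDm3 (adjusted p = 0.000882), 1.61 ± 0.129 in KO_ERRb_DBDm6 (adjusted p = 1.17e-05) and 1.06 ± 0.128 in KO_ERRb_AF2M6 (adjusted p = 0.000146). In KO_ERRg_wt it was 2.06 ± 0.131 (adjusted p = 5.58e-06), or 4.17 times the KO_mock level. None of these 4 calls ended on leaving out any 1 clone. When only the 4 clones compared were fitted, the KO_ERRb_DBDm3 call ended (adjusted p = 0.056).

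Against KO_ERRb_wt, Idh2 was higher by 0.92 ± 0.127 in KO_ERRb_DBDm6 (adjusted p = 0.00026) and by 1.38 ± 0.128 in KO_ERRg_wt (adjusted p = 6.64e-05). KO_ERRb_AF2M6 was higher than KO_ERRb_wt by 0.37 ± 0.126 (adjusted p = 0.0342). That call ended without 8-4 (0.248), 32-25 (0.168), 32-31 (0.0503), 14-1-10 (0.0504) or 14-11 (0.0501), and with each chromosome scaled separately (0.0541), library totals in place of TMM (0.0804), TMM without chromosomes 6, 8 and 14 (0.0574) or limma-voom on libraries (0.128, and 0.136 with the block). KO_ERRb_DBDm3 differed from KO_ERRb_wt by 0.20 ± 0.126 (adjusted p = 0.241), and passed without 9-8 (0.38, adjusted p = 0.0345). In the order of group means, KO_ERRg_wt exceeded KO_ERRb_DBDm6 (adjusted p = 0.0296, where 19.4% of all genes were called), and KO_ERRb_wt exceeded KO_mock. The neighbours between them, KO_ERRb_DBDm6, KO_ERRb_AF2M6, KO_ERRb_DBDm3, WT_mock and KO_ERRb_wt, each missed the threshold against the next (adjusted p = 0.228, 0.554, 0.973 and 0.303). In KO_ERRb_DBDm6 against KO_ERRb_AF2M6, 0 of 15238 genes were called, so that this miss does not set Idh2 apart. The Idh2 clones of these groups did not overlap. KO_ERRb_AF2M6 against KO_ERRb_DBDm3 had 34 genes called higher and 64 lower. KO_ERRb_DBDm3 and KO_ERRb_wt against WT_mock had 48.1% and 10.3% called. Set directly against WT_mock, KO_ERRg_wt was higher by 1.17 ± 0.127 (adjusted p = 0.000157, where 28.1% of all genes were called) and KO_ERRb_DBDm6 by 0.72 ± 0.126 (adjusted p = 0.000983, where 46.3% were called).

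The close clone values of KO_ERRb_DBDm6 hide a difference between libraries. Its 4 libraries had 206, 286, 194 and 289 CPM, and in each clone library 2 was the higher, by 1.39 times in 10-24 and 1.49 times in 10-26. Clone 9-6 of KO_ERRb_DBDm3 had 137 and 200 CPM (1.46 times), and clone 32-25 of KO_ERRb_AF2M6 had 157 and 198 CPM (1.26 times). In the other 8 clones with 2 libraries, library 2 was at most 1.1 times library 1. Over 10516 genes, the differences between libraries 2 and 1 of these 4 clones (9-6, 10-24, 10-26 and 32-25) also moved together, with correlations of 0.603 to 0.721, and their part in the Idh2 levels was not tested. No other of the 9 genes had a ratio outside 0.897 to 1.22, and all 4 KO_ERRb_DBDm6 libraries stayed above all 4 KO_mock libraries, which had 75.6 to 81.6 CPM. The only library of each KO_ERRg_wt clone is numbered 2 in the column headers, and these had 331 and 335 CPM. Library 2 of the KO_ERRb_DBDm6 clones had 286 and 289 CPM. The part of the library number in the difference between KO_ERRg_wt and the other groups was not tested.

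**Figure D3:**
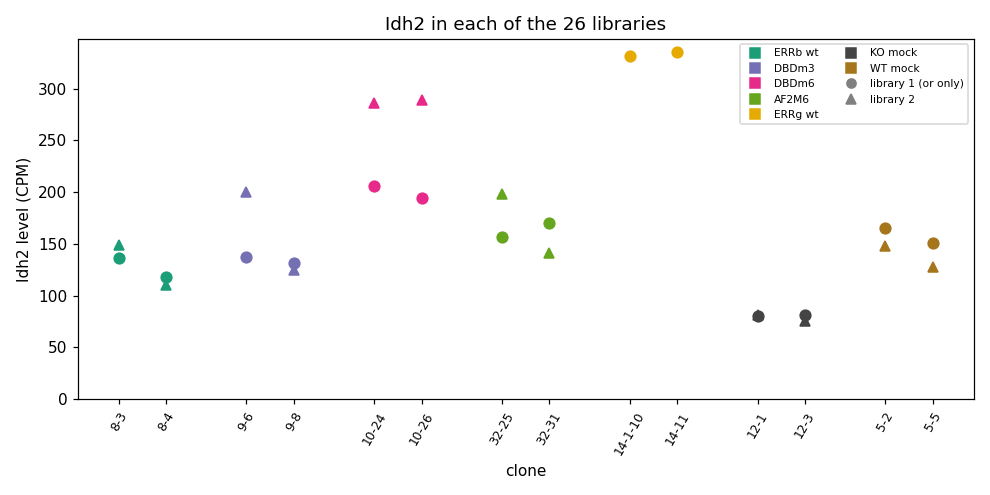
Idh2 level (CPM, from 0) in each of the 26 libraries, by clone and group, with circles for library 1 or the only library and triangles for library 2. The KO mock libraries lie between 75.6 and 81.6 CPM, and library 2 lies well above library 1 in clones 9-6, 10-24 and 10-26.

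The NAD-dependent isocitrate dehydrogenase, the enzyme usually placed in the forward cycle, is built from the subunits encoded by Idh3a (alpha, catalytic), Idh3b (beta) and Idh3g (gamma). The 3 did not move alike. Idh3a and Idh3g were called higher than in KO_mock in KO_ERRb_DBDm6 and KO_ERRg_wt, while Idh3b was called higher in all 3 mutant groups and KO_ERRg_wt. None of the 3 was called in KO_mock against WT_mock or in KO_ERRb_wt against KO_mock.

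Idh3a (chr9:54586511-54604662, plus strand) had 107 and 108 CPM in KO_ERRb_wt, 99.9 and 99 CPM in KO_ERRb_DBDm3, 115 and 118 CPM in KO_ERRb_DBDm6 and 109 and 94.1 CPM in KO_ERRb_AF2M6. It had 132 and 128 CPM in KO_ERRg_wt, 93 and 98.8 CPM in KO_mock and 109 and 105 CPM in WT_mock. The KO_ERRg_wt clones were above all others, and no KO_mock clone reached a WT_mock clone. The fold change against KO_mock was 0.44 ± 0.0702 in KO_ERRg_wt (adjusted p = 0.000742) and 0.28 ± 0.0698 in KO_ERRb_DBDm6 (adjusted p = 0.00792), the KO_ERRb_DBDm6 call ending without 12-1 (0.0758) or 10-26 (0.0529). KO_ERRg_wt exceeded KO_ERRb_wt by 0.27 ± 0.07 (adjusted p = 0.0155), which ended without 8-3 (0.0632), 8-4 (0.0801), 14-1-10 (0.112) or 14-11 (0.0627). KO_mock against WT_mock gave -0.16 ± 0.0698 (adjusted p = 0.0873), which passed without 32-25 (0.0476) or 32-31 (0.0475), with library totals (0.0262), with limma-voom (0.042, and 0.0459 with the block) and with only the 4 clones compared (0.0396).

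Idh3b (chr2:130279309-130284451, minus strand) had 108 and 108 CPM in KO_ERRb_wt, 122 and 139 CPM in KO_ERRb_DBDm3, 154 and 162 CPM in KO_ERRb_DBDm6 and 145 and 140 CPM in KO_ERRb_AF2M6. KO_ERRg_wt had 146 and 142 CPM, KO_mock 105 and 109 CPM and WT_mock 108 and 103 CPM. The 8 clones with a mutant or with ERR gamma were all above the 6 clones of KO_ERRb_wt, KO_mock and WT_mock, which overlapped each other. Against KO_mock the fold changes were 0.29 ± 0.0676 in KO_ERRb_DBDm3 (adjusted p = 0.0103), 0.56 ± 0.0676 in KO_ERRb_DBDm6 (adjusted p = 0.000114), 0.41 ± 0.0675 in KO_ERRb_AF2M6 (adjusted p = 0.00081) and 0.42 ± 0.0679 in KO_ERRg_wt (adjusted p = 0.000725). Against KO_ERRb_wt they were 0.28 ± 0.0675 (adjusted p = 0.0101), 0.55 ± 0.0676 (adjusted p = 0.000136), 0.40 ± 0.0675 (adjusted p = 0.000811) and 0.41 ± 0.0678 (adjusted p = 0.00151) in the same order. Only the KO_ERRb_DBDm3 calls ended on leaving out a clone, against KO_mock without 12-1 (0.0838), 12-3 (0.0503) or 9-8 (0.0661) and against KO_ERRb_wt without 9-8 (0.0652), and both when only the 4 clones compared were fitted (0.134 and 0.148). The same 8 clones carry the lower chromosomes 6 and 8, so that expressing these proteins and that chromosome state cannot be told apart for Idh3b. With each chromosome scaled separately, all 8 calls held. Idh3b lies on chromosome 2, so that this scaling could not test for effects of chromosomes 6 and 8 on it.

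Idh3g (chrX:73778963-73786897, minus strand) had 146 and 130 CPM in KO_ERRb_wt, 144 and 143 CPM in KO_ERRb_DBDm3, 162 and 169 CPM in KO_ERRb_DBDm6 and 147 and 145 CPM in KO_ERRb_AF2M6. It had 181 and 175 CPM in KO_ERRg_wt, 132 and 133 CPM in KO_mock and 151 and 135 CPM in WT_mock. The KO_ERRg_wt and KO_ERRb_DBDm6 clones were the 4 highest. The fold change against KO_mock was 0.42 ± 0.0701 in KO_ERRg_wt (adjusted p = 0.000912) and 0.32 ± 0.0698 in KO_ERRb_DBDm6 (adjusted p = 0.00415). Against KO_ERRb_wt it was 0.37 ± 0.07 in KO_ERRg_wt (adjusted p = 0.00329) and 0.26 ± 0.0698 in KO_ERRb_DBDm6 (adjusted p = 0.0114), and the KO_ERRb_DBDm6 call ended without 8-4 (0.101) or 10-26 (0.0769). It also ended with each chromosome scaled separately (0.12, adjusted p = 0.247) and with library totals in place of TMM (0.19, adjusted p = 0.0571).

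Per length, in TPM (counts divided by exon length and scaled to a common sum), Idh2 stood at 3.54 and 3.7 times Idh3a in the KO_ERRg_wt clones and at 3.02 and 2.88 times in KO_ERRb_DBDm6. The ratio was 1.88 and 1.49 in KO_ERRb_wt, 2.35 and 1.84 in KO_ERRb_DBDm3, 2.28 and 2.35 in KO_ERRb_AF2M6, 1.23 and 1.13 in KO_mock and 2.03 and 1.87 in WT_mock. The transcript balance between the NADP-dependent and the NAD-dependent enzyme thus differed most between KO_ERRg_wt and KO_mock. Idh3b per Idh3a was 1.94 to 2.36 in the 6 mutant clones and 1.55 to 1.79 in the other 8.

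Ogdh (chr11:6291597-6359094, plus strand) encodes the E1 subunit of 2-oxoglutarate dehydrogenase, which turns 2-oxoglutarate into succinyl-CoA. It had 167 and 143 CPM in KO_ERRb_wt, 161 and 168 CPM in KO_ERRb_DBDm3, 197 and 207 CPM in KO_ERRb_DBDm6 and 185 and 163 CPM in KO_ERRb_AF2M6. KO_ERRg_wt had 186 and 189 CPM, KO_mock 149 and 150 CPM, and WT_mock 191 and 174 CPM. The KO_mock clones were below both WT_mock clones, and the KO_ERRb_wt clones lay on either side of them. KO_mock against WT_mock gave -0.29 ± 0.0852 (adjusted p = 0.0208), which ended without 5-2 (0.177), 12-1 (0.104) or 12-3 (0.0911). KO_ERRb_wt against WT_mock gave -0.235 ± 0.0851 (adjusted p = 0.0988) and passed without 8-3 (-0.36, adjusted p = 0.04) and with limma-voom (0.0361, and 0.0424 with the block). Against KO_mock the fold change was 0.43 ± 0.0852 in KO_ERRb_DBDm6 (adjusted p = 0.00211) and 0.33 ± 0.0855 in KO_ERRg_wt (adjusted p = 0.0108), the KO_ERRg_wt call ending without 12-1 (0.0644), 12-3 (0.0601), 14-1-10 (0.0561) or 14-11 (0.0674). KO_ERRb_AF2M6 against KO_mock gave 0.22 ± 0.0851 (adjusted p = 0.062) and passed without 8-3, 8-4, 9-6, 9-8 or 32-31 (adjusted p = 0.0357 to 0.0438), with DESeq2 (0.0482) and with limma-voom (0.0231, and 0.0275 with the block). Against KO_ERRb_wt, KO_ERRb_DBDm6 was higher by 0.38 ± 0.0851 (adjusted p = 0.00486), ending without 8-4 (0.0513). KO_ERRg_wt was higher than KO_ERRb_wt by 0.28 ± 0.0854 (adjusted p = 0.0359), ending on leaving out any 1 of 7 clones (12-1, 12-3, 8-4, 10-24, 10-26, 14-1-10 and 14-11; adjusted p = 0.0508 to 0.29). That call ended as well with library totals (0.066), with TMM without chromosomes 6, 8 and 14 (0.0563) and with each chromosome scaled separately (0.0606). KO_ERRb_AF2M6 against KO_ERRb_wt gave 0.17 ± 0.0851 (adjusted p = 0.137) and passed without 8-3 (0.036).

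Suclg2 (chr6:95473009-95718846, minus strand) encodes the beta subunit of the GDP-forming succinyl-CoA synthetase. It had 85.1 and 86.7 CPM in KO_ERRb_wt, 50 and 27.9 CPM in KO_ERRb_DBDm3, 44.4 and 42.5 CPM in KO_ERRb_DBDm6 and 44.8 and 36.9 CPM in KO_ERRb_AF2M6. It had 62.9 and 58.7 CPM in KO_ERRg_wt, 70.2 and 80 CPM in KO_mock and 167 and 147 CPM in WT_mock. Every knockout-derived clone was below both WT_mock clones, and the 6 mutant clones were the lowest. KO_mock stood at 47.8% of WT_mock, a fold change of -1.06 ± 0.202 (adjusted p = 0.00276) that was called on leaving out any 1 clone. KO_ERRb_wt against WT_mock gave -0.87 ± 0.201 (adjusted p = 0.0235), ending without 5-2 (0.206), 8-3 (0.0709) or 8-4 (0.155) or with no filter on low counts (0.0621), and KO_ERRb_wt against KO_mock gave 0.19 ± 0.201 (adjusted p = 0.63).

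Suclg2 was also lower than in WT_mock with the mutants and ERR gamma, by log2 fold changes of -2.01 ± 0.209 in KO_ERRb_DBDm3 (adjusted p = 5.49e-05), -1.85 ± 0.207 in KO_ERRb_DBDm6 (adjusted p = 6.54e-05), -1.94 ± 0.208 in KO_ERRb_AF2M6 (adjusted p = 3.52e-05) and -1.37 ± 0.206 in KO_ERRg_wt (adjusted p = 0.00093), where 48.1%, 46.3%, 55% and 28.1% of all genes were called. In KO_mock and KO_ERRb_wt the chromosome did not stand apart from WT_mock. The median log2 fold change of the 735 other tested genes of chromosome 6 was 0.033 in KO_mock against WT_mock, and 8.16% of them were below Suclg2. In KO_ERRb_wt against WT_mock the median was 0.021 and 6.26% were below it. With each chromosome scaled separately the fold changes were -1.06 (adjusted p = 0.000249) and -0.88 (adjusted p = 0.00315).

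In each mutant group both Suclg2 and the median of its chromosome were lower than in KO_mock, but the sizes did not run in parallel across groups. KO_ERRb_DBDm3 had the largest drop of Suclg2 beside the smallest drop of the chromosome median. The fold change was -0.945 ± 0.204 in KO_ERRb_DBDm3 (adjusted p = 0.00726; chromosome median -0.634), -0.79 ± 0.204 in KO_ERRb_DBDm6 (adjusted p = 0.00982; median -0.933) and -0.88 ± 0.204 in KO_ERRb_AF2M6 (adjusted p = 0.00632; median -0.962). With each chromosome scaled separately the values were -0.34 (adjusted p = 0.0567), 0.13 (0.391) and 0.06 (0.733). Against KO_ERRb_wt the fold changes were -1.14 ± 0.205, -0.98 ± 0.204 and -1.07 ± 0.204 in the same groups (adjusted p = 0.00216, 0.00319 and 0.00172), and with that scaling the KO_ERRb_DBDm3 call held (-0.51, adjusted p = 0.00749) while those in KO_ERRb_DBDm6 and KO_ERRb_AF2M6 ended (-0.046, adjusted p = 0.783, and -0.12, adjusted p = 0.435). Against KO_mock the calls also ended without 12-3 in KO_ERRb_DBDm3 (0.0544), without 12-3 (0.0641) or 10-26 (0.0664) in KO_ERRb_DBDm6, and without 32-31 in KO_ERRb_AF2M6 (0.0696). Clone 9-8, with a chromosome median of -0.914, had 27.9 CPM of Suclg2, and clone 9-6 of the same group, with a median of -0.41, had 50 CPM. KO_ERRg_wt against KO_mock gave -0.305 ± 0.204 (adjusted p = 0.263; chromosome median -0.377) and against KO_ERRb_wt -0.50 ± 0.204 (adjusted p = 0.0977; median -0.374). Both passed without 9-6 or 9-8 (adjusted p = 0.0227 for KO_mock, 0.00198 and 0.00199 for KO_ERRb_wt) and when only the 4 clones compared were fitted (0.000469 and 4e-04). With each chromosome scaled separately they were 0.057 (adjusted p = 0.727) against KO_mock and -0.12 (adjusted p = 0.494) against KO_ERRb_wt. Fitted on the 4 clones alone, the KO_ERRb_DBDm3 calls ended against KO_mock (0.131) and KO_ERRb_wt (0.0702).

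Sucla2 (chr14:73552786-73596142, plus strand) encodes the beta subunit of the ADP-forming enzyme. Its levels were 90.9 and 96.3 CPM in KO_ERRb_wt, 84.7 and 75.5 CPM in KO_ERRb_DBDm3, 88.4 and 92.4 CPM in KO_ERRb_DBDm6 and 85.6 and 83.1 CPM in KO_ERRb_AF2M6. It had 97.6 and 97.8 CPM in KO_ERRg_wt, 79.1 and 85.1 CPM in KO_mock and 147 and 146 CPM in WT_mock. WT_mock stood far above the rest, and the 12 knockout-derived clones spanned a narrow range. KO_mock against WT_mock gave -0.83 ± 0.0685 (adjusted p = 4.98e-05), with a median of -0.608 over the 514 other tested genes of chromosome 14 and 31.9% of them below Sucla2. With each chromosome scaled separately it was -0.23 (adjusted p = 0.0253). KO_ERRb_wt against WT_mock gave -0.64 ± 0.0682 (adjusted p = 0.00041; chromosome median -0.56), a call that ended with that scaling (-0.075, adjusted p = 0.515). The fold changes from WT_mock were -0.87 ± 0.0685 in KO_ERRb_DBDm3 (adjusted p = 1.4e-05), -0.69 ± 0.0683 in KO_ERRb_DBDm6 (adjusted p = 3.02e-05), -0.79 ± 0.0684 in KO_ERRb_AF2M6 (adjusted p = 1.03e-05) and -0.58 ± 0.0686 in KO_ERRg_wt (adjusted p = 0.000221). Of all genes, 48.1%, 46.3%, 55% and 28.1% were called in these comparisons. The chromosome 14 medians of these clones ran from -0.552 to -0.502. In KO_ERRg_wt against WT_mock the chromosome median was -0.517, and 45.9% of the other genes were below Sucla2.

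In the 9 of the 11 comparisons that set knockout-derived groups against each other, where chromosome 14 medians differed little, Sucla2 was called in 2. KO_ERRg_wt was higher than KO_mock by 0.25 ± 0.0687 (adjusted p = 0.0141), ending without 12-1 (0.126), 14-1-10 (0.0692) or 14-11 (0.0707). KO_ERRb_DBDm3 was lower than KO_ERRb_wt by a log2 fold change of -0.22 ± 0.0683 (adjusted p = 0.0277), ending without 8-3 (0.051), 8-4 (0.125) or 9-8 (0.17) or with only the 4 clones compared (0.245). KO_ERRb_AF2M6 against KO_ERRb_wt gave -0.15 ± 0.0682 (adjusted p = 0.0982) and passed without 9-6 (0.048) or 9-8 (0.0482), with library totals (0.0237) and with TMM without chromosomes 6, 8 and 14 (0.0462). KO_ERRb_wt against KO_mock gave 0.19 ± 0.0683 (adjusted p = 0.166).

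**Figure D4:**
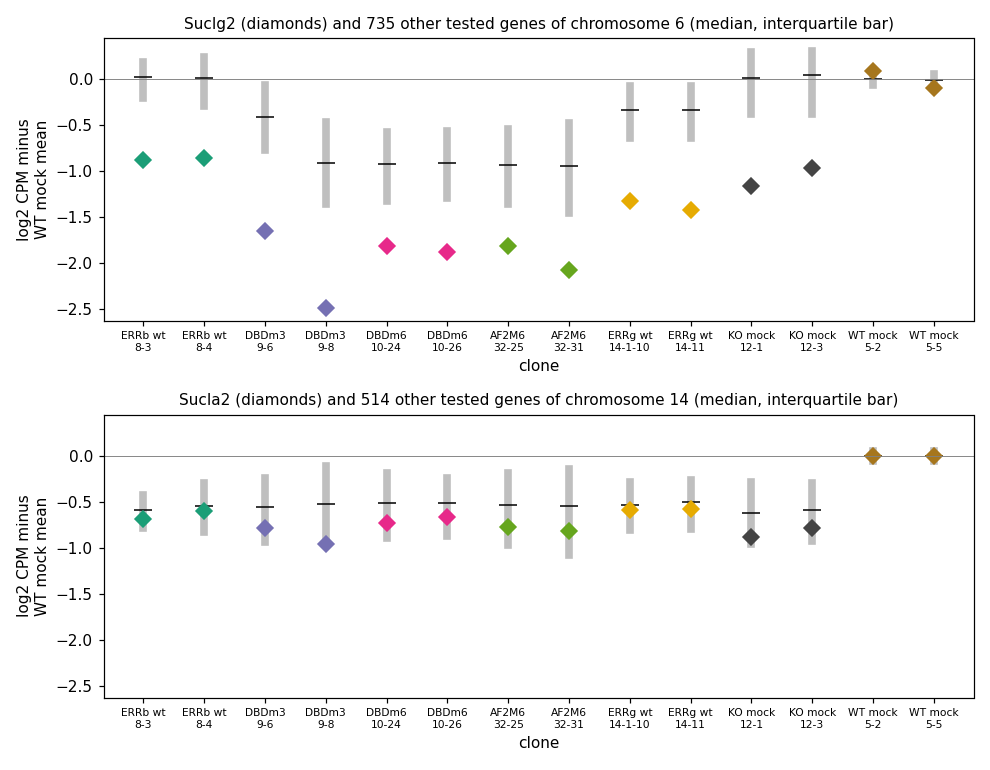
Log2 CPM minus the WT mock mean, per clone, of Suclg2 (upper panel) and Sucla2 (lower panel) as diamonds, with the median (dash) and interquartile range (grey bar) of the other tested genes of chromosome 6 (735) and chromosome 14 (514). Suclg2 lies below the bar in every knockout-derived clone, at -0.879 and -0.852 in the ERRb wt clones, whose chromosome medians are 0.0311 and 0.0184, while Sucla2 lies within its bar in all knockout-derived clones but 9-8, where it is at -0.952.

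Per length, both beta subunits together amounted to 125 and 132 TPM in KO_ERRb_wt, 96.7 and 75.3 TPM in KO_ERRb_DBDm3, 93.3 and 93.6 TPM in KO_ERRb_DBDm6, 92.1 and 86.8 TPM in KO_ERRb_AF2M6, 115 and 116 TPM in KO_ERRg_wt, 105 and 116 TPM in KO_mock and 224 and 206 TPM in WT_mock. No knockout-derived clone came near the WT_mock clones. Sucla2 made up 63.4% and 64.3% of that sum in KO_ERRb_wt, 73.3% and 81.5% in KO_ERRb_DBDm3, 76.3% and 77.9% in KO_ERRb_DBDm6, 75.6% and 78.5% in KO_ERRb_AF2M6, 71.5% and 73% in KO_ERRg_wt, 64.6% and 63.3% in KO_mock and 58.7% and 61.7% in WT_mock. The balance leaned furthest to the ADP-forming subunit in the clones with the lowest chromosome 6. The alpha subunit shared by both enzymes, Suclg1, also lies on chromosome 6. It had 240 and 248 TPM in KO_ERRb_wt, 111 to 187 TPM in the 6 mutant clones, 191 and 202 TPM in KO_ERRg_wt, 227 and 242 TPM in KO_mock and 228 and 219 TPM in WT_mock, so that KO_mock and WT_mock differed in the beta subunits and overlapped in the alpha subunit.

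**Figure D5:**
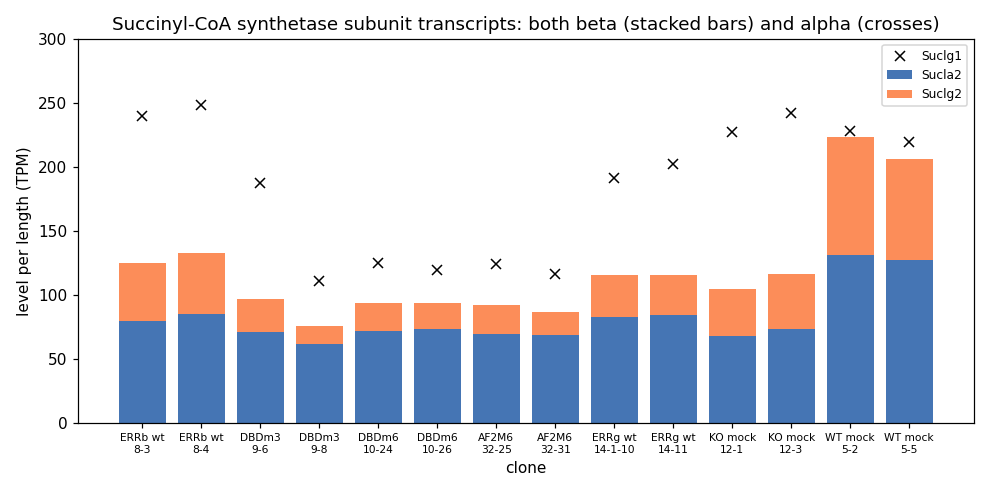
Levels per length (TPM, from 0) of Sucla2 and Suclg2 as stacked bars and of Suclg1 as crosses, per clone. The stacked bars reach 224 and 206 TPM in WT mock and 75.3 to 132 TPM elsewhere, while the Suclg1 crosses lie at 227 to 248 TPM in ERRb wt and KO mock and at 228 and 219 TPM in WT mock.

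The rest of the cycle was read from 10 further enzyme genes, all tested. In KO_mock against WT_mock 1 was higher (Mdh2, malate dehydrogenase, 0.26 ± 0.0658, adjusted p = 0.01), 1 lower (Dld, the E3 subunit shared by the pyruvate and 2-oxoglutarate dehydrogenases, -0.35 ± 0.0819, adjusted p = 0.00771) and 8 were not called. In KO_ERRb_wt against WT_mock 1 was lower (Dld, -0.29 ± 0.0818, adjusted p = 0.0444). KO_ERRb_DBDm3 against KO_mock had 3 lower (Suclg1, Sdhd and Dlst). KO_ERRb_DBDm6 against KO_mock had 6 higher and 2 lower, with Sdhb, the iron-sulfur subunit of succinate dehydrogenase, at 0.39 ± 0.0604 (adjusted p = 0.000503) and Dld at 0.51 ± 0.082 (adjusted p = 0.000639), and Suclg1 lower at -0.835 ± 0.162 (adjusted p = 0.00203), beside a chromosome 6 median of -0.933. KO_ERRb_AF2M6 had 4 higher, among them the fumarase gene Fh1 (0.56 ± 0.102, adjusted p = 0.0016), and 3 lower. KO_ERRg_wt had 3 higher, among them Sdhb (0.45 ± 0.0607, adjusted p = 0.000257) and the flavoprotein subunit gene Sdha (0.27 ± 0.0666, adjusted p = 0.0081), and 1 lower, Sdhd (-0.35 ± 0.0704, adjusted p = 0.00268). The shares of all tested genes called were 37.4% in KO_mock against WT_mock, 1.85% in KO_ERRb_wt against KO_mock, and 25.7%, 41.4%, 37.1% and 38.3% in KO_ERRb_DBDm3, KO_ERRb_DBDm6, KO_ERRb_AF2M6 and KO_ERRg_wt against KO_mock, and 10.3% in KO_ERRb_wt against WT_mock.

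These list counts moved on leaving out a clone. In KO_mock against WT_mock edgeR called 0 of the 10 without 5-2 or 12-1 (2 at an unadjusted p below 0.05 each time) and 4 without 32-25, and it called 5 with library totals or only the 4 clones compared; limma-voom called 4 and DESeq2 2. The Dld call in KO_ERRb_wt against WT_mock ended on leaving out any 1 clone of WT_mock, KO_mock, KO_ERRb_wt, KO_ERRb_DBDm6 or KO_ERRg_wt, and with each chromosome scaled separately. Against KO_mock, KO_ERRb_DBDm3 had 0 called without 12-1 or 12-3 (3 at an unadjusted p below 0.05 each time), 1 without 10-24 or 10-26, and 0 with only the 4 clones compared (1 at an unadjusted p below 0.05), while DESeq2 on all clones called 3. KO_ERRb_DBDm6 had 4 without 12-1, 12-3 or 10-26 and 5 without 10-24 or with each chromosome scaled separately. KO_ERRb_AF2M6 had 4 without 12-1, 12-3, 10-24, 10-26 or 32-31 or with no filter, and KO_ERRg_wt had 8 with only the 4 clones compared.

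In KO_ERRb_wt against KO_mock, edgeR called 0 of these 10 genes, with 0 at an unadjusted p below 0.05, and DESeq2 also called 0. Against KO_ERRb_wt, 1 was higher and 2 lower in KO_ERRb_DBDm3, 6 higher and 1 lower in KO_ERRb_DBDm6, 4 higher and 2 lower in KO_ERRb_AF2M6, and 3 higher and 1 lower in KO_ERRg_wt. Sdhb was among the higher ones in KO_ERRb_DBDm6 (0.37 ± 0.0603, adjusted p = 0.00067), KO_ERRb_AF2M6 (0.25 ± 0.0603, adjusted p = 0.00676) and KO_ERRg_wt (0.43 ± 0.0606, adjusted p = 0.00056). Of all tested genes, 32.1%, 39%, 43.2% and 25.4% were called in these 4 comparisons, in the order given. The list count was 1 in KO_ERRb_DBDm3 without 8-4, 4 in KO_ERRb_DBDm6 without 10-26, and in KO_ERRg_wt 1 without 8-4 and 2 without 14-1-10 or 14-11. With only the 4 clones compared it was 0 in KO_ERRb_DBDm3 (2 at an unadjusted p below 0.05; DESeq2 on all clones called 3).

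Of 12 genes of pyruvate entry (the mitochondrial pyruvate carrier, the other pyruvate dehydrogenase subunits, and the kinases and phosphatases that switch the complex off and on), 1 was higher and 4 lower in KO_mock against WT_mock. Pdk4, a pyruvate dehydrogenase kinase known as a target of ERR proteins in other tissues, had 6.12 and 4.91 CPM in KO_ERRb_wt, 3.83 and 5.51 CPM in KO_ERRb_DBDm3, 6.29 and 8.07 CPM in KO_ERRb_DBDm6, 5 and 5.24 CPM in KO_ERRb_AF2M6, 11.1 and 7.42 CPM in KO_ERRg_wt, 2.27 and 2.66 CPM in KO_mock and 8.67 and 6.76 CPM in WT_mock. The KO_mock clones were the lowest of all, as for Idh2. The fold change was -1.64 ± 0.254 in KO_mock against WT_mock (adjusted p = 0.000969). It was 1.16 ± 0.255 in KO_ERRb_wt against KO_mock (adjusted p = 0.0473) and 1.91 ± 0.258 in KO_ERRg_wt against KO_mock (adjusted p = 0.000266). The gene lies on chromosome 6, whose medians in these 3 comparisons were 0.0331, 0.012 and -0.377. Pdk4 was the single gene of the 12 called in KO_ERRb_wt against KO_mock. Pdk2, a kinase of the same family, was lower in KO_mock than in WT_mock (-1.33 ± 0.233, adjusted p = 0.00181) and higher in KO_ERRg_wt than in KO_mock (1.56 ± 0.237, adjusted p = 0.000533). Its level was low, with a mean of 2.44 CPM over the clones. Over the whole list, KO_ERRb_DBDm3 against KO_mock had 1 higher and 2 lower, KO_ERRb_DBDm6 had 2 and 2, KO_ERRb_AF2M6 had 2 and 3, and KO_ERRg_wt had 4 and 2. Against KO_ERRb_wt, the 3 mutants in that order had 0 higher and 3, 4 and 5 lower, and KO_ERRg_wt had 3 higher and 2 lower. Of all tested genes, 32.1%, 39%, 43.2% and 25.4% were called against KO_ERRb_wt. Pdp2 and Pdpr of this list lie on chromosome 8. Calls over all tested genes made up 37.4% in KO_mock against WT_mock, 1.85% in KO_ERRb_wt against KO_mock, and 25.7%, 41.4%, 37.1% and 38.3% in KO_ERRb_DBDm3, KO_ERRb_DBDm6, KO_ERRb_AF2M6 and KO_ERRg_wt against KO_mock. The count for the list in KO_mock against WT_mock was 3 without 12-1. The Pdk4 call in KO_ERRb_wt against KO_mock ended on leaving out any 1 clone of WT_mock, KO_mock, KO_ERRb_wt, KO_ERRb_DBDm6 or KO_ERRg_wt, and with each chromosome scaled separately (5 of the 12 at an unadjusted p below 0.05), while 2 genes were called with only the 4 clones compared and 2 by limma-voom without the block. Against KO_mock the count was 1 in KO_ERRb_DBDm3 without 12-3 or with each chromosome scaled separately and 0 with only the 4 clones compared (3 at an unadjusted p below 0.05; DESeq2 on all clones called 3). In KO_ERRb_DBDm6 it was 1 without 12-3, 10-24 or 10-26, 2 without 12-1 or with each chromosome scaled separately, and 8 with only the 4 clones compared. In KO_ERRb_AF2M6 it was 3 without 12-1, 12-3 or 32-31 and 2 with each chromosome scaled separately, and in KO_ERRg_wt 3 without 12-3 or 14-11.

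Of 12 genes that feed the cycle from its sides or act as cytosolic counterparts, none was higher and 3 were lower in KO_mock against WT_mock. Among them were Glud1, glutamate dehydrogenase (-0.63 ± 0.0531, adjusted p = 5.21e-05), and Pck2, mitochondrial phosphoenolpyruvate carboxykinase (-1.39 ± 0.297, adjusted p = 0.00479). Both lie on chromosome 14, whose median in that comparison was -0.608. In KO_ERRb_wt against KO_mock 1 of the 12 was higher. KO_ERRg_wt against KO_mock had 6 higher, among them Pck2 (1.59 ± 0.299, adjusted p = 0.00202), and 1 lower. Slc25a1, the mitochondrial citrate carrier, was higher than in KO_mock in KO_ERRb_DBDm3 (0.385 ± 0.0997, adjusted p = 0.0168), KO_ERRb_DBDm6 (0.915 ± 0.1, adjusted p = 6.36e-05), KO_ERRb_AF2M6 (0.77 ± 0.1, adjusted p = 0.000203) and KO_ERRg_wt (0.51 ± 0.1, adjusted p = 0.00248). The 3 mutant comparisons had 2, 3 and 1 genes of this list higher and 3, 4 and 4 lower, in the order KO_ERRb_DBDm3, KO_ERRb_DBDm6 and KO_ERRb_AF2M6. For comparison, the calls over all tested genes were 37.4% in KO_mock against WT_mock, 1.85% in KO_ERRb_wt against KO_mock, and 25.7%, 41.4%, 37.1% and 38.3% in KO_ERRb_DBDm3, KO_ERRb_DBDm6, KO_ERRb_AF2M6 and KO_ERRg_wt against KO_mock. In KO_mock against WT_mock 1 of the 12 was called with each chromosome scaled separately and 5 with only the 4 clones compared. The 1 call in KO_ERRb_wt against KO_mock ended on leaving out any 1 clone of WT_mock, KO_mock, KO_ERRb_wt, KO_ERRb_DBDm6 or KO_ERRg_wt. Against KO_mock the count was 2 in KO_ERRb_DBDm3 without 12-1 or 12-3, 3 without 9-8, 8 without 9-6, and 0 with only the 4 clones compared (5 at an unadjusted p below 0.05; DESeq2 on all clones called 6). It was 4 in KO_ERRb_DBDm6 without 12-1 or 10-26, 3 in KO_ERRb_AF2M6 without 12-1 or 32-31 and 8 without 9-6 or 9-8, and 4 in KO_ERRg_wt on leaving out any 1 of its own clones or those of KO_mock.

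Genes with the most similar pattern were sought for each of the 9 by Pearson correlation of log2 CPM over the 14 clones, which share their groups and, on chromosomes 6, 8 and 14, their chromosome state. Predicted genes were kept in the ranking. Idh2 was most like Ly75 (r = 0.968), Spp1 (0.966) and Fabp3 (0.965). Idh3b was most like Atp5b (0.979), Gpi1 (0.976) and Etfb (0.973), Idh3a like Golm1 (0.963), Stmn2 (0.957) and Hadha (0.943), and Idh3g like Spp1 (0.969), Slc12a7 (0.965) and Car13 (0.956). Ogdh was most like Tmem205 (0.962), Ctsl (0.956) and Dhtkd1 (0.954), Dlat like Rp9 (0.918), Gng2 (0.917) and S1pr3 (0.915), and Cs like Ddt (0.908), Akr1a1 (0.9) and Serpinb9 (0.897). For Sucla2 the top genes were Tinf2 (0.978), Ebpl (0.977) and Mdp1 (0.971), all on chromosome 14, and 44 of its 50 most similar genes lay on that chromosome, which holds 3.38% of tested genes. For Suclg2 they were Tgm1 (0.983, chromosome 14), Tmem231 (0.981, chromosome 8) and Vcl (0.978, chromosome 14). Of its 50 most similar genes, 1 lay on chromosome 6, which holds 4.83% of tested genes. Among the 9, Idh2 was most like Idh3g (r = 0.938), and Suclg2 was most like Sucla2 (0.824) and had a negative correlation with Idh3b (-0.771).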

How the data were processed

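Strand-specific libraries from total RNA depleted of ribosomal RNA were sequenced with single-end reads of 100 bp, per the labels' protocols. The submitters' processing notes name STAR (2.7.8a), mm10 and featureCounts (2.0.10, while the file header has 2.0.1), and the authors deposited integer counts per gene symbol. Exons were counted on the reverse strand, per the file headers, a read in overlapping genes counted for each, and multiply aligned reads were left out. No exon of the 9 genes overlaps another gene on the same strand. The deposited length column gives exon bases and was used for TPM.

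Here the counts of a clone were summed (clone totals 25103562 to 54105869), genes were filtered with filterByExpr, scaled with TMM (0.972 to 1.05) and fitted with edgeR (4.0.16, R 4.3.3) robust quasi-likelihood, 1 mean per group over 14 clones. Fold changes are log2, SE being the fold change over the square root of F. The spread is shared by all groups, so that a left-out clone can change calls of groups it does not belong to. The fit was tested on simulated data with a small set of genes changed in KO_mock and no chromosome shifts. That setting differs from the data here. Alternatives were other scalings, no filter, DESeq2 (1.42.0), only the compared groups, limma-voom (3.58.1) on 24 libraries, and leaving out each clone. Named were all 9 genes, called genes among the 4 of smallest p in each list and comparison, and the 3 most similar genes by correlation. Some genes of the lists are not reported here by name. The genes and lists were chosen with earlier results of these data known. Library numbers were not taken to pair the samples, since the deviations of same-numbered libraries correlated at -0.319 to 0.721 (median 0.014, 66 pairs of clones) and not all pairs were over 0.1.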

Additional observations from a re-analysis of the deposited data

Results flagged for a closer look

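Within each group of 4 libraries, the 9 genes were examined for a library far from the other 3, in 54 groups of values. Chance alone would pick out about 1 in 20 if the 4 libraries were independent. They are 2 libraries from each of 2 clones, so that this rate need not hold. The rule flagged 3. Dlat in KO_ERRb_wt had 123 CPM in library 2 of clone 8-4 and 116, 116 and 117 CPM in the others. Idh2 in KO_ERRb_DBDm3 had 200 CPM in library 2 of clone 9-6 and 125, 132 and 137 CPM in the others. Ogdh in KO_ERRb_DBDm3 had 155 CPM in library 1 of clone 9-6 and 168, 168 and 169 CPM in the others.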

How the results depend on the processing

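Of the values of the 9 genes under the alternatives other than left-out clones, 803 kept their side of the threshold (25 of these, none of them called, changed sign, with fold changes up to 0.305 in size), 30 lost and 20 gained a call, and 2 called values lost the call and changed sign. Those 2 were Suclg2 against KO_mock with each chromosome scaled separately, at 0.131 in KO_ERRb_DBDm6 and 0.057 in KO_ERRb_AF2M6; the scaling removes the chromosome median by construction. With it, KO_ERRb_wt against WT_mock had 1 gene called and KO_ERRb_AF2M6 against KO_ERRb_wt 1. Without a filter KO_ERRb_wt against WT_mock had 1. With only the 2 groups compared, KO_ERRb_wt against KO_mock had 2, and KO_ERRb_DBDm3 had 0 against KO_mock and 0 against KO_ERRb_wt, with 3 and 2 of the 9 at an unadjusted p below 0.05 and 287 and 791 calls over all genes.

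On leaving out clones 1279 values kept their side of the threshold (32 of these, none of them called, changed sign, with fold changes up to 0.092 in size), 76 lost and 30 gained a call, and 1 gained a call in the opposite direction, Cs in KO_ERRb_DBDm3 against KO_ERRb_wt at -0.214 without 9-6 and 0.231 without 9-8. The counts of the 9 then ran from 3 to 6 in KO_mock against WT_mock (3 without 5-2, 12-1 or 12-3) and from 1 to 2 in KO_ERRb_wt against WT_mock (1 without 5-2 or 8-4). Against KO_mock they ran from 0 to 2 in KO_ERRb_wt (0 without 12-1, 12-3, 8-3, 14-1-10 or 14-11, with 2 to 4 of the 9 at an unadjusted p below 0.05, and 2 without 9-6 or 9-8), 1 to 4 in KO_ERRb_DBDm3 (1 without 12-3), 5 to 7 in KO_ERRb_DBDm6, 3 to 5 in KO_ERRb_AF2M6 and 4 to 9 in KO_ERRg_wt (4 without 14-11). Against KO_ERRb_wt they ran from 2 to 4 in KO_ERRb_DBDm3, 3 to 7 in KO_ERRb_DBDm6 (3 without 8-4), 2 to 5 in KO_ERRb_AF2M6 (5 without 9-6 or 9-8) and 3 to 7 in KO_ERRg_wt (3 without 8-4, 14-1-10 or 14-11), and over the 7 groups from 8 to 9. A lone remaining clone is assumed to vary like the other groups.

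With the replicate block on libraries the counts were 6 in KO_mock against WT_mock, 1 in KO_ERRb_wt against KO_mock and 3 in KO_ERRb_wt against WT_mock, the same counts as without the block. The gene called in KO_ERRb_wt against KO_mock was then Dlat (adjusted p = 0.028, and 0.0227 without the block), and Idh2 was not called (0.078 and 0.0676). The correlation of library 2 minus library 1 was over 0.1 in 23 of 66 pairs of clones, and ran from 0.603 to 0.721 in the 6 pairs among 9-6, 10-24, 10-26 and 32-25. KO_ERRg_wt titles carry no replicate number, so that no such fit was made for it. The column headers, however, number both of its libraries as library 2. The number of clones, 2 in each group, limits the precision.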
